A study of Mus musculus with 23 samples.

Results

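Accessible chromatin at 6 genes that make or handle lipoproteins, Apoe, Apoc1, Apoc4, Apoc2, Pltp and Lpl, was described in mouse blood monocytes, liver macrophages and cultured macrophages. The assay was ATAC-seq, which reads open DNA from the places where a transposase can insert. Peaks from all 23 libraries were merged where they overlapped, and a merged region was counted for the gene with the nearest mm10 protein-coding gene body within 50 kb. This gave 41 of 155137 regions, of which Lpl held 20, Pltp 8, Apoe, Apoc1 and Apoc2 4 each and Apoc4 1. The rule used position alone and no signal.

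Blood Ly6C-high monocytes came from untreated C57BL/6J mice (2 libraries). Liver macrophages repopulating after loss of Kupffer cells, which are the macrophages that live in the liver sinusoids, came from Clec4f-cre/Rosa26iDTR mice 24 h (3 libraries) or 48 h (2 libraries) after diphtheria toxin, and Kupffer cells of the same strain came from mice given PBS (2 libraries). Clec4f-cre acts in Kupffer cells, where it turns on the toxin receptor or deletes a floxed gene. TIM4+ Kupffer cells of untreated Nr1h3 flox/flox controls, TIM4+ cells of Nr1h3 flox/flox Clec4f-cre +/- knockouts and TIM4- cells of those knockouts had 2 libraries each. Nr1h3 encodes LXRα, a nuclear receptor that binds cholesterol derivatives. A Smad4 experiment had 2 libraries titled knockout and 2 titled control, all without treatment. Their strain labels read Smad4 flox/flox for the former and Smad4 flox/flox Clec4f-cre +/- for the latter, the opposite of the titles. The titles were followed, and with the strain labels in their place each Smad4 direction below would be the opposite. Bone-marrow-derived macrophages (BMDM) of C57BL/6J mice were cultured for 4 days and left untreated or given the Notch ligand DLL4 for 24 h (2 libraries each). No label gave an age, and the labels of the Nr1h3 and cultured libraries did not say whether replicates came from separate animals or cultures, so p-values there measure only the spread between libraries.

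Apolipoproteins coat lipoprotein particles and steer them to enzymes and receptors. Apoe is a ligand of the low-density lipoprotein receptor family, Apoc2 activates lipoprotein lipase, and Apoc1 and Apoc4 are small exchangeable apolipoproteins. Pltp moves phospholipids between particles, and Lpl hydrolyses their triglycerides. The Apoe cluster, Pltp and Lpl are known targets of LXR in macrophages. Apoe, Apoc1, Apoc4 and Apoc2 lie in that order and orientation within one short stretch of chromosome 7.

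RefSeq promoter windows (GRCm38.p6) were given for 4 of the 6 genes, namely Apoe, Apoc2, Apoc4 and Pltp, and there was no entry for Apoc1 and Lpl. The windows of Apoe and Pltp are shown because a peak covered the start of each and had its highest signal in cultured macrophages. Apoe has 3 listed starts, and the window shown belongs to the one under that peak. Each is the 250 bases before the start on the minus strand, and capitals mark motifs, read on both strands.
Apoe, chr7:19699189-19699438: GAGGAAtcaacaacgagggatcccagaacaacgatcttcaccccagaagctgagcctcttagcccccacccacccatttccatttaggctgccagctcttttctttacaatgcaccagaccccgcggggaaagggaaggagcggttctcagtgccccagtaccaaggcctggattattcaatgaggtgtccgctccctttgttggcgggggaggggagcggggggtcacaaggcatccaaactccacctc
Pltp, chr2:164857709-164857958: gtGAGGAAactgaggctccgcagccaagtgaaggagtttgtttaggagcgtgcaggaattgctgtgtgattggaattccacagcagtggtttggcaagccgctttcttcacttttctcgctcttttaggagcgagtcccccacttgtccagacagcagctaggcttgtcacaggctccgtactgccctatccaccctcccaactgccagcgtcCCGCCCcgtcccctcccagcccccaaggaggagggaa
The capitals in the Apoe window are the PU.1 core GAGGAA, which 23.3% of all 32851 windows of 250 bases held. In the Pltp window they are GAGGAA and the GC box GGGCGG, here on the other strand as CCGCCC, held by 32.7% of all windows. Neither window held the AP-1 motif TGANTCA (6.75% of all windows), the nuclear receptor half-site AGGTCA (14.0%), TATAAA (12.4%) or DR4, the direct repeat of AGGTCA with 4 bases between the copies that LXR binds (0.0152%). The Apoc2 and Apoc4 windows held AGGTCA once each, Apoc4 also GGGCGG, and no peak reached them. The Apoe peak covered the 95 bases of its window nearest the start, and the Pltp peak the nearest 139.

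The libraries held 10.4 to 18.4 M tags and 48775 to 104206 peaks, with 15.4% to 54.7% of tags in peaks. Signal is the deposited normalised tag count, tags in a peak per 10 M tags of the library. A lower signal from fewer cells of a type and from less open DNA in each cell cannot be told apart in such pooled cells. The 469 member values rested on 8 to 304 tags (median 54). Of the 7 Kupffer cell markers, Clec4f, Timd4 and Marco had no peak in blood or repopulating macrophages, and all 7 had one in the 3 control Kupffer groups. Timd4 had no peak in TIM4- knockouts, and Clec4f none in the libraries titled Smad4 knockout or in BMDM. Among 15 hepatocyte markers, tested because hepatocytes make these apolipoproteins, Ahsg, Cyp2e1, Cyp3a11, Fgb, Serpina1a, Tat and Ttr had no peak in any library and Alb had one in DLL4-treated BMDM alone, while 2 to 8 of the 15 had a peak in each library.

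Of the 41 regions, 8 (19.5%) were called in all 23 libraries, against 17.2% of all regions, and 6 (14.6%) in a single library, against 16.7%. The 8 were the region between Apoc1 and Apoe, that upstream of Apoc4, 2 of Apoc2, 2 of Pltp and 2 of Lpl. Of the 20 Lpl regions, 10 to 12 were called in each BMDM library and 4 to 10 in each of the others. Peak lists differed in the same direction over the whole genome, with 85563 to 104206 peaks in BMDM libraries and 48775 to 84395 in the others. The Lpl counts are therefore not read as particular to Lpl. Regions called in all 4 BMDM libraries and in none of the other 19 numbered 2, chr8:68889130-68889367 inside Lpl and chr8:68908073-68908398 just past its end, and 3.68% of all regions had that pattern. Both were weak, at 10.9 to 19. Another 2 were called in all 6 control Kupffer libraries and in no blood or BMDM library, 1 at Apoc1 and 1 at Pltp, a pattern of 1.5% of all regions. Among the 8 regions called throughout, none had all 4 BMDM libraries above the other 19, as 14.9% of all such regions did, or 4.89% after centring.

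**Figure D1:**
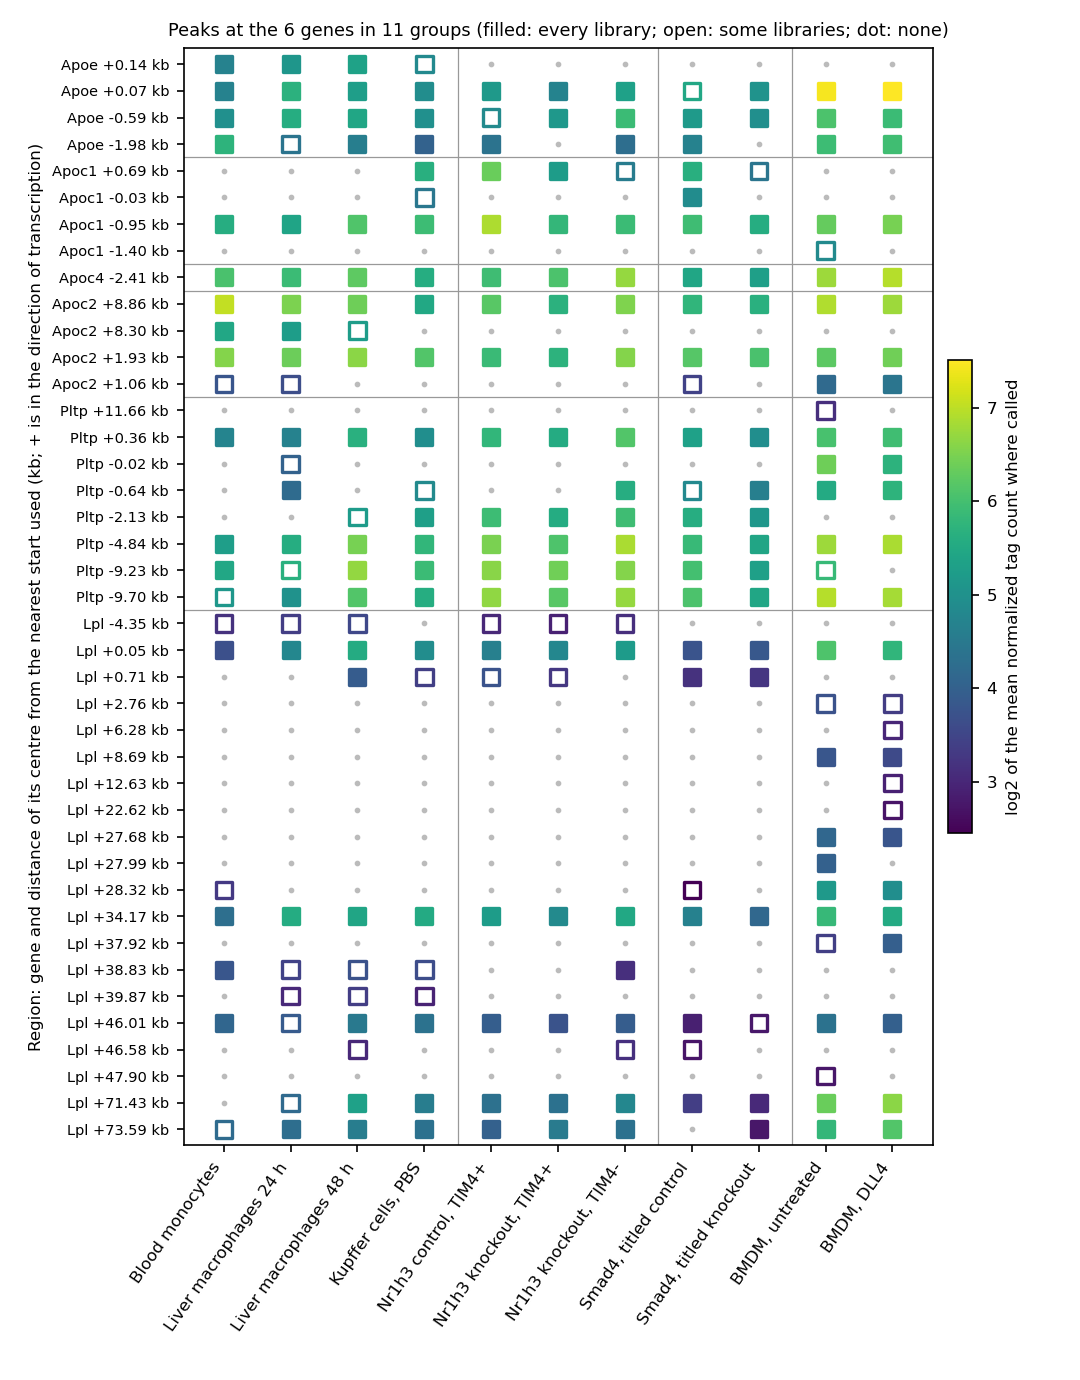
The 41 regions (rows, labelled by gene and the distance of the region centre from the nearest start, in kb) in 11 groups (columns). Filled squares mark a peak in every library of the group, open squares in some libraries and dots in none, and colour gives the log2 mean normalised tag count. Several Lpl rows are filled in BMDM alone, and the row of the region inside Apoc1 is filled in the 3 control Kupffer groups and empty in blood, repopulating macrophages and BMDM.

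The start of Apoe lay under a region at chr7:19698944-19699283, the strongest of that gene, with a peak in 22 libraries. Its signal was 187 and 162 in untreated BMDM and 177 and 186 after DLL4. Blood monocytes had 25.2 and 25.4, repopulating macrophages had 58.0, 69.0 and 27.5 after 24 h and 42.7 and 34.5 after 48 h, and Kupffer cells 35.1 and 24.9. In the Nr1h3 experiment it was 37.0 and 34.3 in controls, 25.5 and 26.6 in TIM4+ knockouts and 51.3 and 28.3 in TIM4- knockouts. The libraries titled Smad4 knockout had 30.7 and 35.4, and those titled control had 44.3 and no peak. All 4 BMDM values thus stood above the other 18, which reached 69.0 at most. Cell source, culture and experiment cannot be told apart in that difference, and it was not tested.

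A second Apoe region, chr7:19700968-19701365, lay 1978 bp upstream of that start and touched the neighbouring gene Tomm40, with which it was tied. Blood monocytes had 50.5 and 55 and BMDM 57.7, 62.2, 61.8 and 61.6, above every liver library. The liver values ran from 15.2 to 31.2 where a peak was called. It was called in 1 of 3 libraries at 24 h (20.9), in both at 48 h (27.0 and 21.3), in Kupffer cells (15.2 and 17.3), in Nr1h3 controls (23.7 and 17.8) and in TIM4- knockouts (22.4 and 15.8). Libraries titled Smad4 control had 19.4 and 31.2. TIM4+ Nr1h3 knockouts and libraries titled Smad4 knockout had no peak there, and their nearest peak was 1129 to 1156 bp away.

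**Figure D2:**
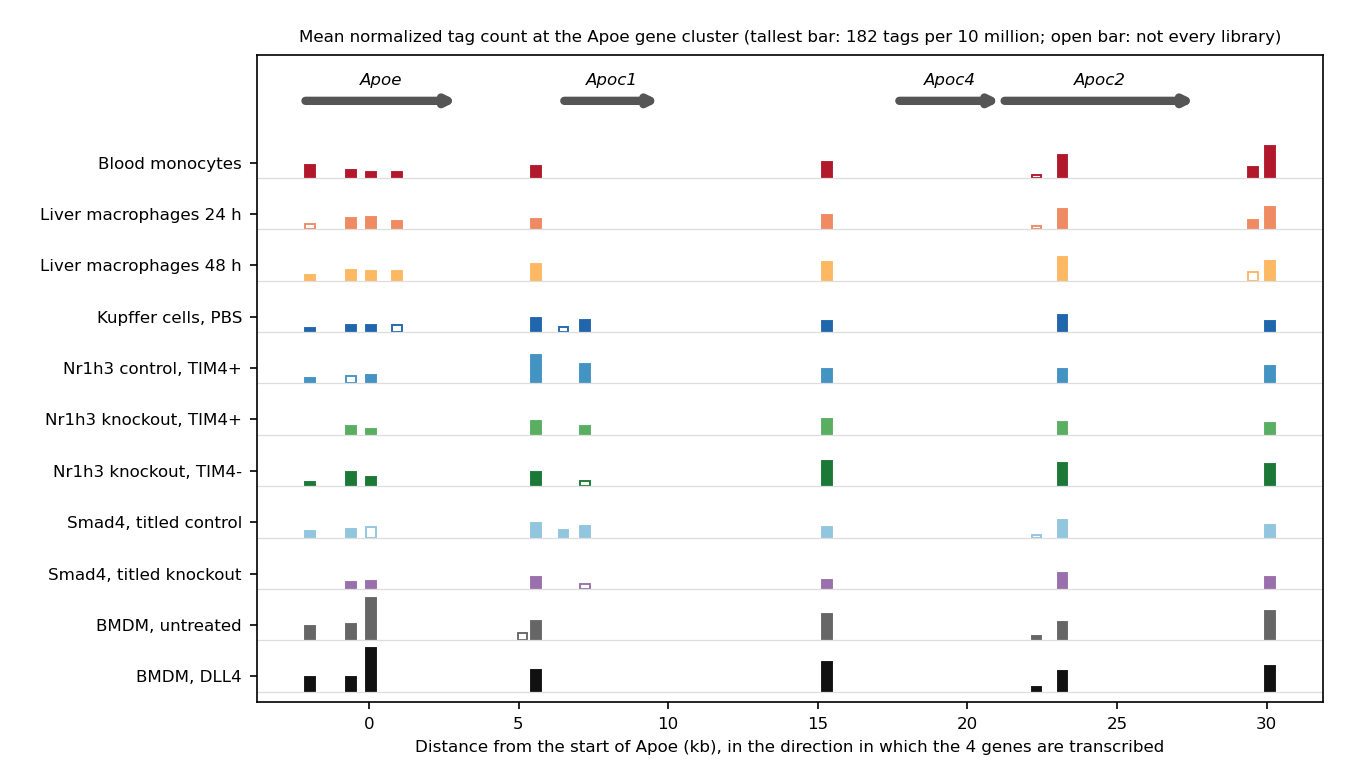
Mean normalised tag count of each region of Apoe, Apoc1, Apoc4 and Apoc2 in 11 groups, by distance from the Apoe start in kb, with arrows for the gene bodies. Bars are scaled to the tallest, the Apoe start in DLL4-treated BMDM, and open bars mean that not every library had the peak. The 2 bars at Apoc1 are tallest in Nr1h3 controls.

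Apoc1 had a region inside its gene body, chr7:19691692-19692249, centred 688 bp after the start, that was found in Kupffer cells. Its signal was 50.2 and 48.9 in Kupffer cells of PBS mice, 82.1 and 80.5 in Nr1h3 controls and 46.0 and 54.1 in libraries titled Smad4 control. TIM4+ Nr1h3 knockouts had 30.0 and 44.4, before centring both below all 6 control values. Centred levels across experiments were not computed for this region, which was not called in all libraries. It was called in 1 library of TIM4- knockouts (23.4) and in 1 titled Smad4 knockout (21.2). No blood, 24 h, 48 h or BMDM library had it, and their nearest peak lay 1166 to 1356 bp away.

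That nearest peak was the region between Apoc1 and Apoe, chr7:19693415-19693805, 951 bp upstream of Apoc1 and called in all 23 libraries. Nr1h3 controls had the highest values of all, 127 and 108. TIM4+ knockouts had 56.8 and 54.6 and TIM4- knockouts 51.8 and 66.5. Blood monocytes had 58.6 and 38.8, the 24 h libraries 36.5, 58.1 and 31.3, the 48 h libraries 70.6 and 67.5, and Kupffer cells 55.9 and 65.2. Libraries titled Smad4 knockout had 44.6 and 51.5 and those titled control 45.4 and 77.6, while BMDM had 84.2, 73.6, 90.1 and 87.6. Before centring, the knockout values thus lay within the range of the other control Kupffer cells, 45.4 to 77.6. After centring each library on its median, the mean log2 level was 1.02 ± 0.07 (SD, n = 2) in Nr1h3 controls, 0.22 ± 0.23 in TIM4+ knockouts, -0.49 ± 0.32 in TIM4- knockouts, -0.04 ± 0.00 in Kupffer cells of PBS mice and 0.47 ± 0.28 in libraries titled Smad4 control.

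Upstream of Apoc4, chr7:19683683-19684056 was called in every library. Before centring, BMDM (112, 105, 117 and 130) and TIM4- Nr1h3 knockouts (114 and 95.3) had the highest values. The other 17 libraries ran from 36.0 to 77.6. After centring each library on its median, TIM4+ Nr1h3 knockouts had the highest mean log2 level, 0.47. It was 0.33 in TIM4- knockouts, 0.30 in DLL4-treated and 0.21 in untreated BMDM. This region was described after its values were seen, as the single region of Apoc4.

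Downstream of Apoc2, chr7:19668947-19669213 had its highest group means before centring in blood monocytes (115 and 147) and BMDM (124, 116, 103 and 114). It had 105, 83.5 and 85.4 at 24 h, 88.9 and 77.7 at 48 h, and 36.0 and 53.7 in Kupffer cells, so that each value of the 24 h and 48 h libraries lay between those of blood monocytes and Kupffer cells. Nr1h3 controls had 78.1 and 68.0, TIM4+ knockouts 49.1 and 53.2 and TIM4- knockouts 97.8 and 86.6. Libraries titled Smad4 knockout had 53.6 and 47.1 and those titled control 43.0 and 64.5. After centring, the mean log2 level was 0.70 in blood monocytes and 0.50 in libraries titled Smad4 knockout. It was 0.36 in untreated BMDM, 0.35 in Nr1h3 controls and 0.12 in DLL4-treated BMDM. The Apoc2 and Apoc4 regions were tied with a readthrough gene model that spans both genes, Gm44805.

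At the start of Pltp, chr2:164857609-164857847 was called in all 4 BMDM libraries, with 82.9 and 85 untreated and 45.1 and 58.8 after DLL4, and elsewhere in 1 library at 24 h (16.3). All 23 libraries had a second peak just inside the gene, chr2:164857210-164857477, which in libraries without the first lay 132 to 199 bp away, so a missing call at the start is not a measurement of closed DNA there. The region at the start was described after its values were seen. A region 636 bp upstream, chr2:164858183-164858506, was called at 24 h (17.8, 24.5 and 12.3), in TIM4- Nr1h3 knockouts (53.6 and 43.6), in libraries titled Smad4 knockout (19.5 and 29.2) and in BMDM (46.7, 45.5, 58.1 and 47.2). Blood, 48 h, Nr1h3 control and TIM4+ knockout libraries had none, and 1 library of Kupffer cells (28.8) and 1 titled Smad4 control (28.5) had it.

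The Pltp region of Kupffer cells, 2132 bp upstream at chr2:164859691-164859989 and described after its values were seen, had 37.0 and 40.3 in PBS mice, 65.9 and 54.1 in Nr1h3 controls, 42.1 and 51.9 in TIM4+ knockouts and 66.0 and 56.1 in TIM4- knockouts. Smad4 libraries had 29.6 and 40.3 titled knockout and 40.0 and 57.4 titled control. It was called in 1 library at 48 h (36.6) and in no blood, 24 h or BMDM library, whose nearest peak lay 1187 to 2256 bp away. Unlike the Apoc1 region, it was called in every Nr1h3 and Smad4 library.

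Further upstream, the strongest Pltp region, chr2:164862337-164862758, was called in all libraries. Blood monocytes had 39.1 and 37.4, the 24 h libraries 48.7, 50.8 and 43.6, the 48 h libraries 98.5 and 78.5, and Kupffer cells 53.1 and 56.6. Nr1h3 controls had 99.5 and 81.2, TIM4+ knockouts 75.3 and 60.7, TIM4- knockouts 130 and 102, libraries titled Smad4 knockout 36.8 and 48.4, those titled control 53.9 and 61.2, and BMDM 114, 103, 106 and 126. A pair of neighbouring regions lay more than 9 kb upstream. At chr2:164866730-164867147 liver macrophages and blood had 32.9 to 112, with 1 library at 24 h lacking a peak, while among BMDM only 1 untreated library had a peak (57.7). At chr2:164867252-164867573, BMDM had 129, 116, 115 and 113, and all but 1 blood library had a peak, with values from 21.8 to 109 outside BMDM. Where BMDM lacked the first of the pair, their nearest peak was 140 to 212 bp away and was the second.

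The start of Lpl, chr8:68880364-68880839, was covered in all libraries. Monocytes had 8.14 and 17.6, the 24 h libraries 39.3, 33.6 and 10.4, the 48 h libraries 54.9 and 38.1, Kupffer cells 32.2 and 27.8, and BMDM 81.7, 54.3, 42.1 and 65.7. Nr1h3 controls had 22.6 and 27.1, TIM4+ knockouts 26.8 and 28.7 and TIM4- knockouts 40.7 and 33.2. Before centring, the 4 Smad4 libraries had 11.7 to 16.7, within the range of blood monocytes. After centring each library on its median, the mean log2 level was -1.27 in libraries titled Smad4 knockout and -1.59 in those titled control. Blood monocytes then had -2.63 and Kupffer cells of PBS mice -1.03. The uncentred values of the groups overlapped widely, and the third library at 24 h lay among the blood values.

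Beyond the other end of Lpl, chr8:68914543-68914912, 34172 bp from the start, was its strongest region called throughout. Blood monocytes had 20.3 and 18.3, below all libraries of the repopulation experiment: 54.3, 48.1 and 38.9 at 24 h, 34.9 and 51.3 at 48 h and 47.4 and 44.1 in Kupffer cells. Nr1h3 controls had 41.1 and 33.7, TIM4+ knockouts 23 and 34.8, TIM4- knockouts 43.6 and 45.8, BMDM 60.2, 54.3, 37.8 and 53.4. Libraries titled Smad4 knockout had 13.4 and 21.7 and those titled control 17.6 and 32.8. A region farther out, chr8:68951815-68952150, described after its values were seen, had 84.2, 78.8, 78.5 and 119 in BMDM. It reached 40.1 at most in the other 19 libraries and had no peak in blood. At chr8:68919261-68919511 peaks were weak, 17.1 and 10.6 in blood and 7.66 and 9.80 in TIM4- knockouts, with a peak in some libraries of the 24 h, 48 h and Kupffer cell groups and in none of the rest.

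**Figure D3:**
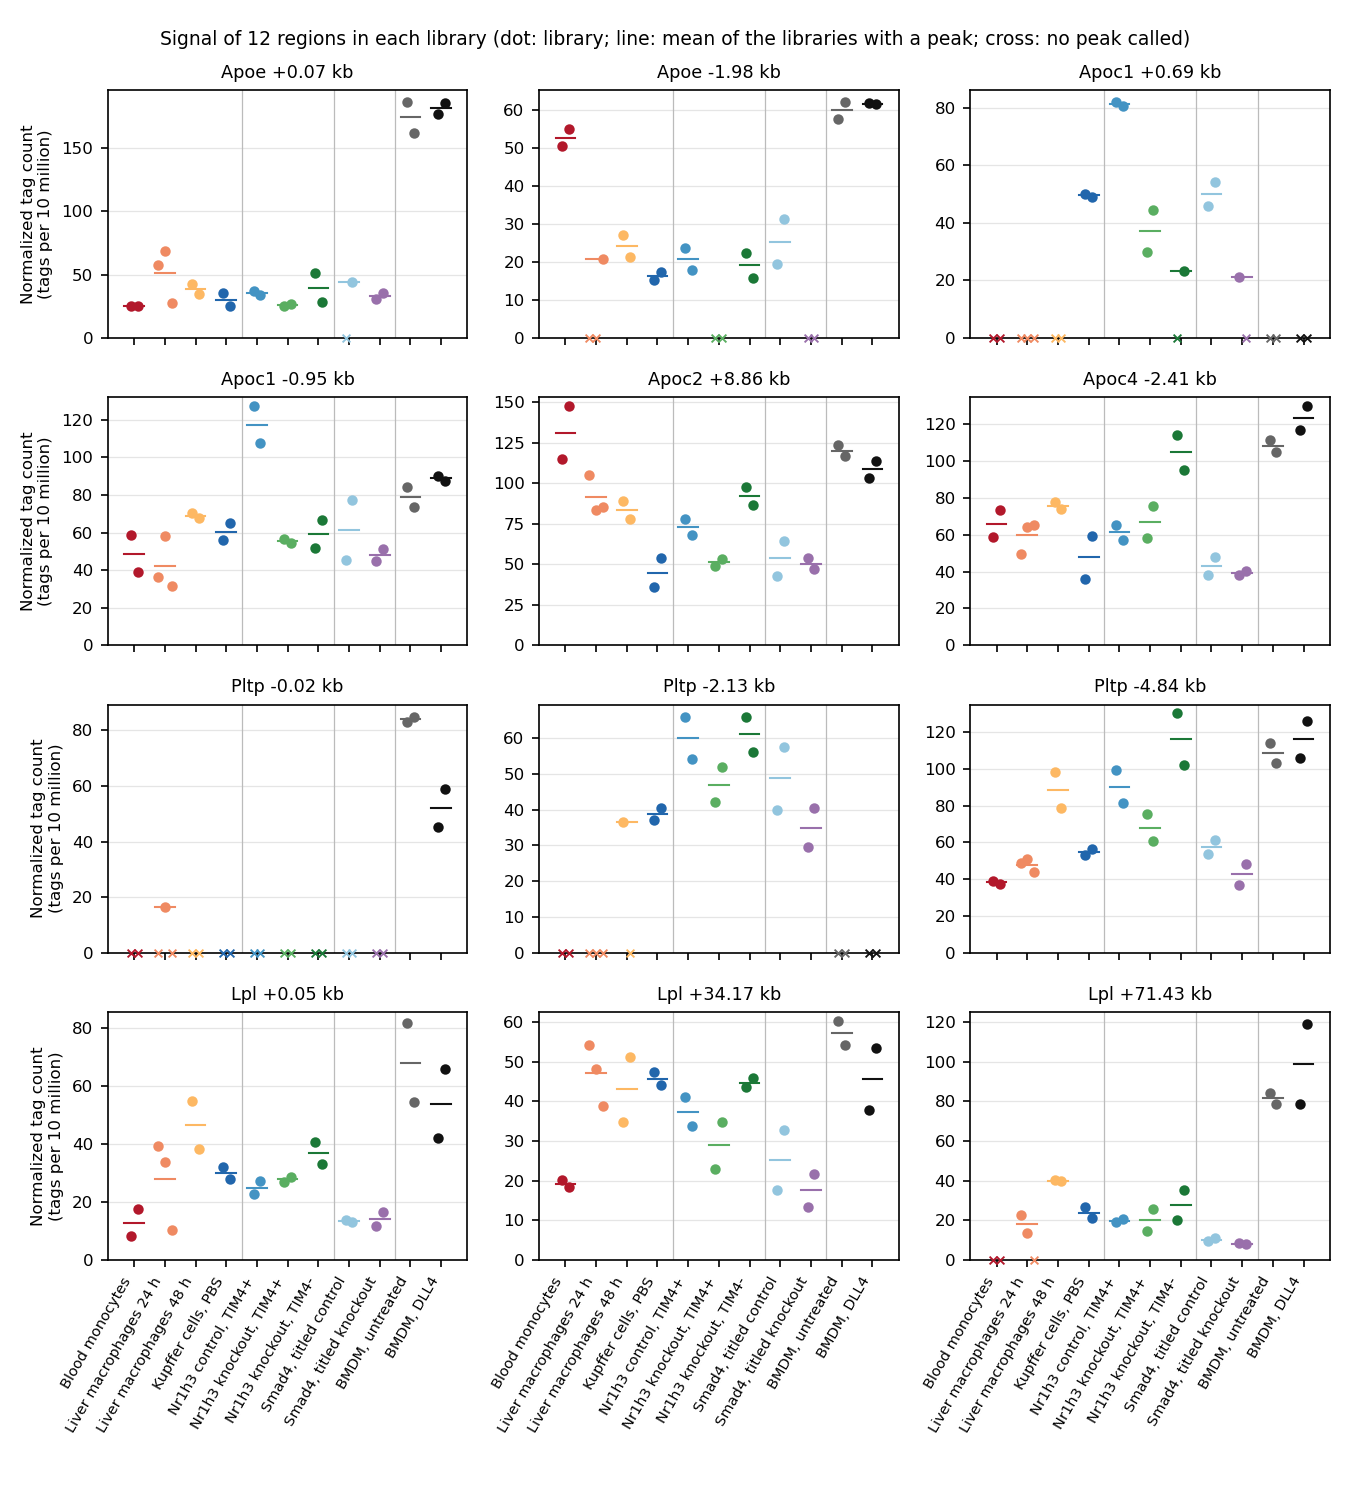
Normalised tag count (tags per 10 M tags) of 12 regions in each of 23 libraries, 1 panel per region named by gene and distance from the start. Dots are libraries, lines are means over the libraries with a peak, and crosses at 0 mark libraries with no peak called. BMDM stand above the rest at the Apoe start, and Nr1h3 controls stand above the rest at both Apoc1 regions.

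Signal was tested with limma on log2 of the value plus 1, each library centred on its median, where all libraries of both groups had a peak, and called changed at a Benjamini-Hochberg adjusted p of 0.05 over all regions tested. Between 12 and 21 of the 41 member regions entered a comparison, which leaves out those called in part of a group. Fold changes are relative to the median region.

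Between blood monocytes and macrophages 24 h after toxin, 3 of the 12 member regions tested were higher and none lower, 2 of Lpl and 1 of the 3 tested for Apoe. This share is near the background of 26.0% of all regions called, 16.7% higher and 9.33% lower. The far Lpl region rose by 1.5 (SE 0.30, adjusted p 0.00041) on the log2 scale, the Lpl start by 1.21 (SE 0.40, adjusted p 0.024) and the Apoe start by 1.16 (SE 0.32, adjusted p 0.0072). The Apoc1 upstream region (0.04, SE 0.31) and the Apoc2 downstream region (-0.25, SE 0.18) did not pass, nor did the other Apoe regions tested, chr7:19698121-19698388 (0.68, adjusted p 0.1) and chr7:19699607-19699954 (0.79, adjusted p 0.051). The median member change was 0.45, against 0.09 over all regions. The far Lpl region was called in each alternative that could test it, with adjusted p up to 0.033. With peaks of at least 20 it could not be tested, since 1 blood library had 18.3. Without blood replicate 2, the Apoe start gave 0.96 (adjusted p 0.14) and the Lpl start 1.51 (adjusted p 0.066), and without 24 h replicate 2 they gave 0.91 (adjusted p 0.071) and 0.99 (adjusted p 0.11). The Lpl start was also lost without blood replicate 1 (0.88, adjusted p 0.29) and without 24 h replicate 1 (0.89, adjusted p 0.14), with quantile normalization it gave 1.09 (adjusted p 0.058), and neither start was called without centring (0.90 and 0.95, leaving 1 member region called). The Pltp region 636 bp upstream was called in every 24 h library and in no blood library, a pattern of 3.02% of all regions, and no member region had the opposite pattern (4.49%).

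From 24 h to 48 h, a single member region of 13 passed, against 5.44% of all regions, 1.92% higher and 3.53% lower. It was the farther of the Pltp pair, at 36.5, 39.0 and 21.8 at 24 h and 71.5 and 69.7 at 48 h, which rose by 0.98 (SE 0.28, adjusted p 0.037). The strongest Pltp region had a difference of 0.71 (SE 0.23, adjusted p 0.069) and did not pass. The call was lost without 24 h replicate 1 (1.02, adjusted p 0.059), without 48 h replicate 1 (0.89, adjusted p 0.26) and without 48 h replicate 2 (1.03, adjusted p 0.25). By presence, the Pltp region 636 bp upstream was seen at 24 h alone (0.609% of all regions) and a weak Lpl region, chr8:68880993-68881540, at 48 h alone (5.09%), with 18.3 and 11.7.

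Kupffer cells of PBS mice differed from 48 h macrophages at 1 of 16 member regions, against 26.4% of all regions, 13.7% higher and 12.6% lower. The region downstream of Apoc2 fell by 0.62 on the log2 scale (SE 0.23, adjusted p 0.042). It did not pass without 48 h replicate 1 (-0.48), without 48 h replicate 2 (-0.75) or without Kupffer cell replicate 1 (-0.38). Without centring 4 member regions were lower, as were 11666 of all 46198 regions tested. The Apoc1 region inside the gene was the only member region called in both Kupffer cell libraries and in neither at 48 h, a pattern of 4.53% of all regions, and none had the opposite pattern (12.8%). The summed signal of the 7 Kupffer markers was 34.1 to 71.7 at 24 h, 249 to 284 at 48 h and 620 to 688 in Kupffer cells. Its part in these differences was not tested. The sum was not particular to Kupffer cells. It was 549.1 to 637.2 in untreated and 617.2 to 639.5 in DLL4-treated BMDM, where 6 of the 7 markers had a peak.

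Against blood monocytes, Kupffer cells had higher signal at 5 and lower signal at 2 of 13 member regions, a total near the background of 51% of all regions, 25.7% higher and 25.3% lower. The comparison shares its Kupffer cell and blood libraries with those above. Both Lpl regions rose, the start by 1.64 (SE 0.35, adjusted p 6.6e-05) and the far region by 1.6 (SE 0.32, adjusted p 2.3e-05). Pltp rose at the strongest region by 0.90 (SE 0.27, adjusted p 0.0042) and at chr2:164866730-164867147 by 0.81 (SE 0.26, adjusted p 0.0063), and the region between Apoc1 and Apoe by 0.73 (SE 0.26, adjusted p 0.017). The Apoe region beside Tomm40 fell by 1.25 on the log2 scale (SE 0.32, adjusted p 0.00068) and the Apoc2 downstream region by 1.15 (SE 0.22, adjusted p 8.8e-06). Without centring, which shifted the median region by -0.39, 2 were higher and 2 lower, against 41.3% of all regions called. The Lpl, Apoe and Apoc2 calls stayed, and the 2 Pltp regions (0.51 and 0.42) and the Apoc1 region (0.33) did not pass. Without blood replicate 2, the Apoc1 region gave 0.23 (adjusted p 0.56) and the strongest Pltp region 0.67 (adjusted p 0.090). Called in Kupffer cells and not in blood were the Apoc1 region inside the gene, the Pltp region 2132 bp upstream and the Lpl region at 71428 bp (12.8% of all regions). In blood and not in Kupffer cells was a region downstream of Apoc2 at chr7:19669526-19669755 (42.3 and 45.8, against 15.9% of all regions).

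The Nr1h3 comparisons ask how loss of LXRα changes chromatin at genes it is known to regulate. Of the 4 tested regions near Nr1h3 itself, none changed in either knockout group, and in each comparison 1 further region was called in both knockout libraries and in no control. A peak there does not measure deletion, so the genotype labels were not checked by it.

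In TIM4+ knockouts, 2 of 16 member regions passed, both at Apoc1 and both lower, against 8.78% of all regions called, 4.86% higher and 3.91% lower. The region inside Apoc1 fell by 0.83 on the log2 scale (SE 0.20, adjusted p 0.0016) and the region between Apoc1 and Apoe by 0.75 (SE 0.17, adjusted p 0.00076). Without control replicate 2 they gave -0.68 (adjusted p 0.17) and -0.71 (adjusted p 0.061). The Apoc4 upstream region had 0.42 (SE 0.19, adjusted p 0.15), the Apoc2 downstream region -0.20 (SE 0.19, adjusted p 0.59) and the Apoe start -0.13 (SE 0.26, adjusted p 0.81). No region of Pltp or Lpl passed. The largest difference among them was 0.81 (SE 0.30, adjusted p 0.064) at the Lpl region 73595 bp from the start, followed by 0.46 (SE 0.27, adjusted p 0.3) at the Lpl start. The strongest Pltp region had -0.10 (SE 0.18) and the far Lpl region -0.08 (SE 0.25). The Apoe region beside Tomm40 was called in both controls and in neither knockout library, as were 7.69% of all regions, and no member region was called in knockouts alone (1.06%). Knockout libraries had 48775 and 53972 peaks and controls 65621 and 58395.

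The TIM4- knockouts could be set only against the TIM4+ controls, since no library held TIM4- control cells. Genotype and TIM4 state therefore cannot be told apart in this comparison. In TIM4- knockouts the region between Apoc1 and Apoe fell by 1.38 on the log2 scale (SE 0.18, adjusted p 5e-12) against the same controls, the only call among 16 member regions, against 13.7% of all regions, 7.03% higher and 6.68% lower. It was called in each alternative fitted, with adjusted p up to 0.0023 and changes from -0.98 to -1.56. Other scalings and filters brought the count of called regions to 2 or 3. The region inside Apoc1 could not be tested, since 1 of the 2 knockout libraries had no peak. Present in TIM4- knockouts and absent in controls were the Pltp region 636 bp upstream and the weak Lpl region at 38831 bp (6.6% of all regions), and no member region had the opposite pattern (3.5%). The summed signal of the 7 Kupffer markers was 600 to 720 in controls, 288 to 430 in TIM4+ knockouts and 246 to 257 in TIM4- knockouts. The sum and the region between Apoc1 and Apoe were thus both lower in the knockout groups than in controls. Before centring, that region had means of 55.7 in TIM4+ and 59.15 in TIM4- knockouts, the other order from the sum. After centring, its mean log2 level was 0.22 in TIM4+ and -0.49 in TIM4- knockouts, the same order as the sum. The part of the sum was not tested.

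Between the knockout populations, TIM4- cells differed from TIM4+ cells at 1 of 16 member regions, against 2.11% of all regions, 0.607% higher and 1.5% lower. This was the Pltp region at chr2:164866730-164867147, which fell by 0.59 on the log2 scale (SE 0.18, adjusted p 0.049), from 76.6 and 92.8 in TIM4+ to 96.6 and 92.1 in TIM4- cells before centring. Centring shifted the median region by 0.75 here, and without it the same region gave 0.16. Without centring, 8 other member regions were called, all higher, against 68.0% of all regions called and 28314 of 41838 higher. No setting that left out a library kept the call of the Pltp region (changes from -0.55 to -0.61). The region between Apoc1 and Apoe had -0.67 (SE 0.21, adjusted p 0.055), and 0.07 without centring. In all, 12 of the 16 tested regions had the other sign without centring. Called in TIM4- cells alone were the Apoe region beside Tomm40, the Pltp region 636 bp upstream and the Lpl region at 38831 bp (10.9% of all regions), and none in TIM4+ cells alone (0.559%). TIM4- libraries had 68613 and 68757 peaks.

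In the Smad4 experiment, limma called none of 14 member regions, against 3.07% of all regions, 1.57% higher and 1.5% lower, and none had an unadjusted p under 0.05. The largest differences, libraries titled knockout minus those titled control, were 0.41 (SE 0.33) at the Lpl region chr8:68880993-68881540, 0.38 (SE 0.31) at the Lpl start and -0.35 (SE 0.19) at chr2:164866730-164867147 near Pltp. The region between Apoc1 and Apoe had 0.03 (SE 0.19). By presence, an Apoc1 region at the gene start, chr7:19692582-19692794 (27.9 and 31.2), and the Apoe region beside Tomm40 were seen in libraries titled control alone (6.97% of all regions). An Lpl region at 73595 bp was seen in those titled knockout alone (7.26 and 6.20, against 1.24%). Libraries titled knockout had 49438 and 57403 peaks and those titled control 60727 and 67555. The summed signal of the 7 Kupffer markers was 106.0 to 267.4 in libraries titled knockout and 364.5 to 545.1 in those titled control. Its part in these differences was not tested.

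After DLL4 the signal at the start of Pltp was lower, the only change among 21 member regions tested in BMDM, against 3.88% of all regions, 2.36% higher and 1.52% lower. It fell by 0.73 on the log2 scale (SE 0.19, adjusted p 0.0094). Without untreated replicate 1 it gave -0.83 (adjusted p 0.16), without untreated replicate 2 -0.63 (adjusted p 0.16) and without DLL4 replicate 1 -0.55 (adjusted p 0.22). The neighbouring Pltp peak inside the gene had -0.11 (SE 0.19, adjusted p 0.82). The Apoe start had 0.03 (SE 0.13, adjusted p 0.95), the Lpl start -0.37 (SE 0.20, adjusted p 0.32) and the far Lpl region -0.38 (SE 0.21, adjusted p 0.35). A weak Lpl region, chr8:68908409-68908676 (15.4 and 16.6), was called in untreated cells alone (2.0% of all regions), and none after DLL4 alone (2.1%).

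**Figure D4:**
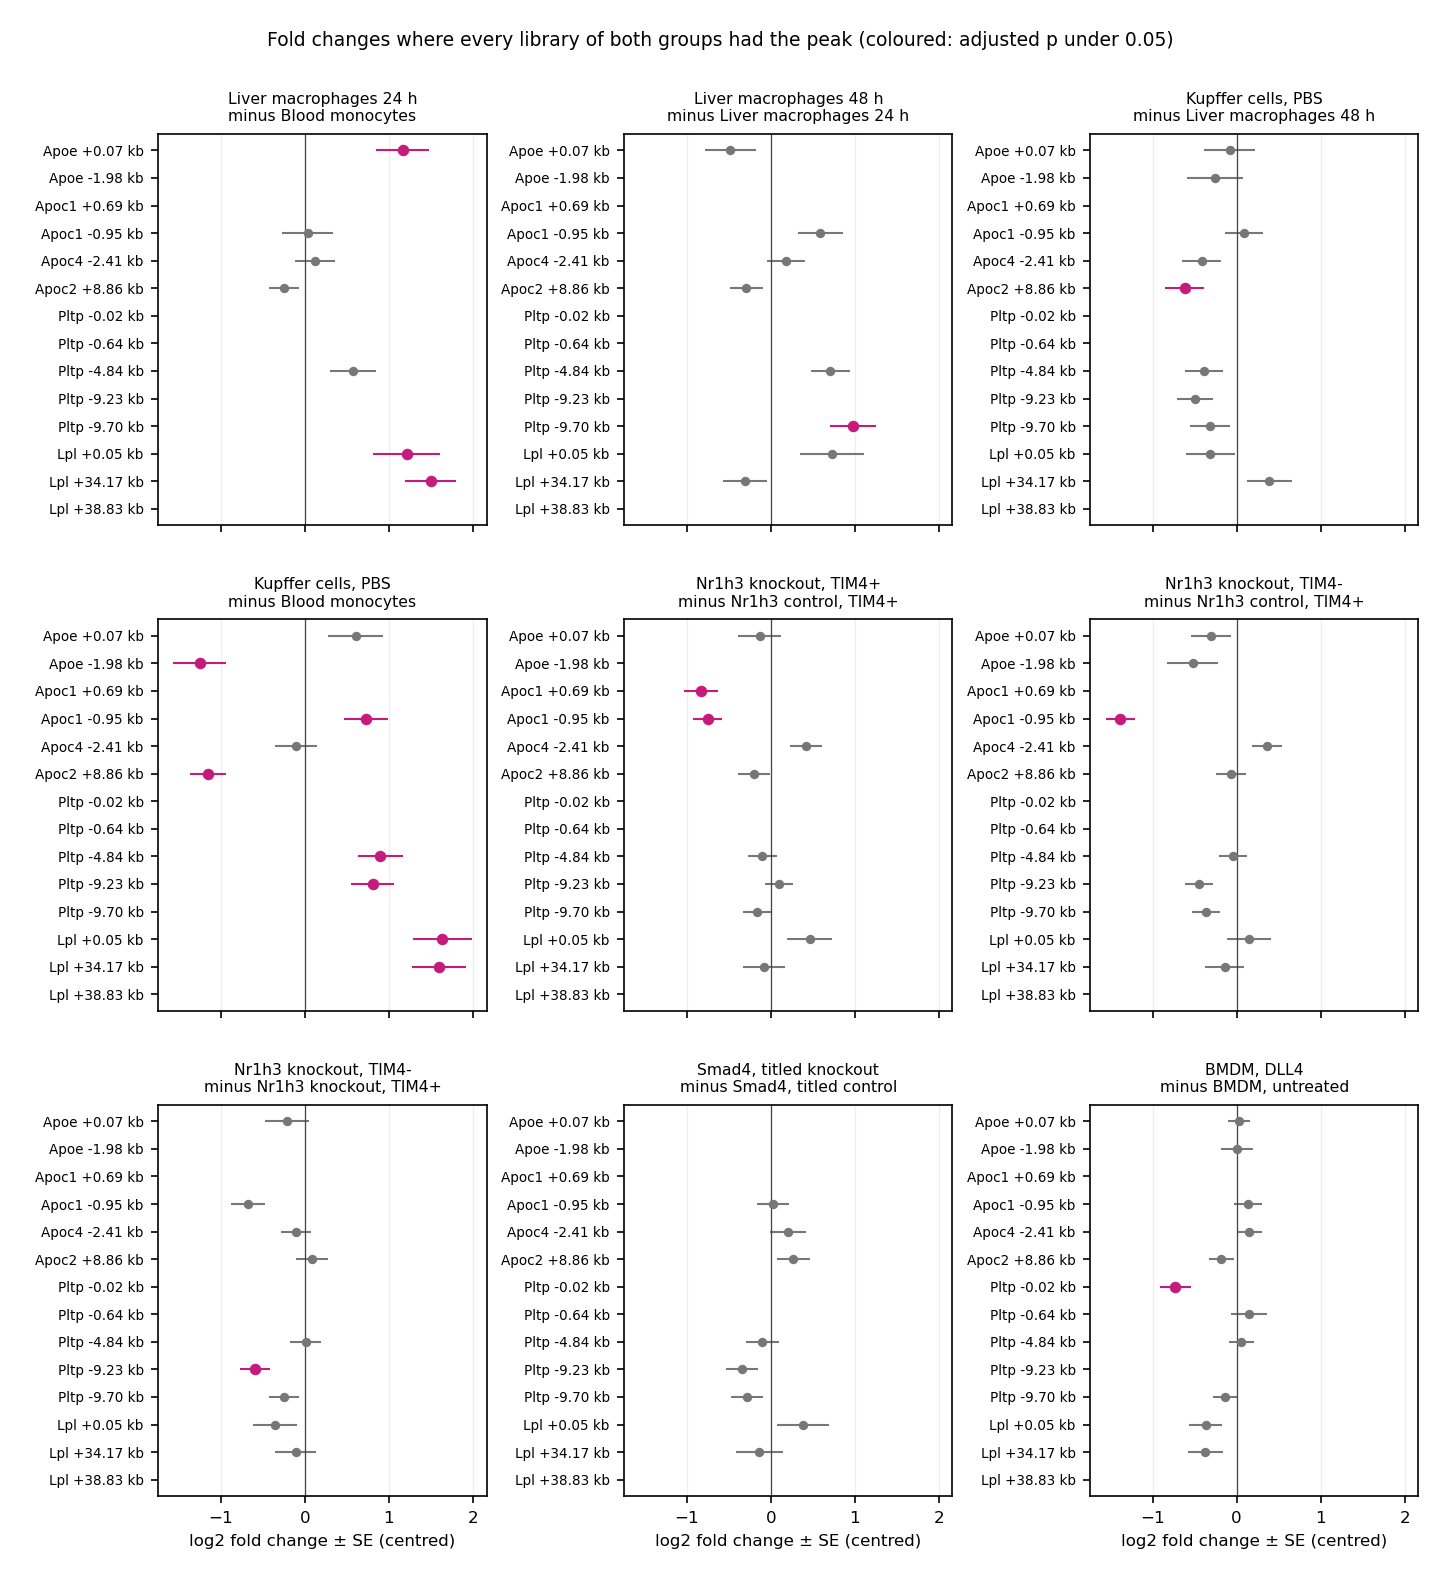
Centred log2 fold change ± SE of 14 regions in the 9 comparisons, shown where every library of both groups had the peak. Coloured points passed an adjusted p of 0.05 over all regions tested. Both Apoc1 regions lie left of 0 in TIM4+ Nr1h3 knockouts, at -0.83 and -0.75, and both Lpl regions lie right of 0 in Kupffer cells against blood, at 1.64 and 1.6.

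For comparison, 48 other genes of lipoprotein and cholesterol handling were counted in the same fits. From blood to 24 h, 48 of their 197 regions rose and 21 fell (35.0%, against 26.0% of all regions). In TIM4+ Nr1h3 knockouts 16 of 212 rose and 8 fell (11.3%, against 8.78%), and in TIM4- knockouts 26 of 240 rose and 21 fell (19.6%, against 13.7%). The counts were 11 higher and 3 lower of 224 from 24 h to 48 h (6.25%, against 5.44%). Kupffer cells had 18 and 48 of 219 against 48 h (30.1%, against 26.4%) and 50 and 45 of 173 against blood (54.9%, against 51%). The counts were 0 and 6 of 224 between knockout populations (2.68%, against 2.11%). They were 7 and 4 of 203 for Smad4 (5.42%, against 3.07%) and 8 and 4 of 292 after DLL4 (4.11%, against 3.88%). Abca1, the transporter that loads cholesterol onto apolipoproteins and a known LXR target, had 17 regions tested in TIM4+ knockouts. Of these 2 fell, 15 did not pass, and 3 further regions were called in controls alone. The larger of the 2 tested falls was 2.39 on the log2 scale (SE 0.21, adjusted p 1e-25). In TIM4- knockouts 5 of 18 Abca1 regions fell and 1 rose. Abcg1, which exports cholesterol to mature particles, had no call among 15 regions in either knockout group against controls.

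Regions of other genes whose centred signal over the 11 group means was most like that of each member's strongest region, among 26618 regions called in all libraries, are given as a description, since depth and cell type are shared by all of them. For the region between Apoc1 and Apoe they lay near Dhrs1 (Pearson r 0.956), Wbp1l (0.925) and Cmklr1 (0.922). For Apoc4 they were near Tfcp2 (0.968), Cd300a (0.968) and Sh3bp5 (0.964), and for Apoc2 near 1700001O22Rik (0.946), Ptpn1 (0.945) and Myo19 and Pigw (0.943). For Pltp they lay near Capzb (0.973), Map3k14 (0.972) and Vps37b (0.972), and for Lpl near Atp1b4 (0.953), Arhgap18 (0.948) and Lilr4b (0.944). The Apoe start was left out because 1 library had no peak there.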

How the data were processed

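ATAC-seq peak files of 23 libraries were used. The submitters' processing notes name Bowtie2, HOMER and mm10, and their versions are not given in the sources used here. Per the file headers, the signal is HOMER's normalised tag count, computed for each library separately and scaled to 10 M (10000000) tags. Peaks were 200 bp wide and at least that far apart, at an FDR of 0.001 (8 to 11 tags), and had to exceed the local 10 kb 4-fold with a Poisson p of 0.0001. A missing peak is therefore a missed threshold, not a measured 0.

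Of 1605886 peaks, 1205 outside the autosomes and X were left out. Peaks overlapping by at least 1 bp were merged, and the strongest gave a library's value. Gene bodies came from RefSeq (GRCm38.p6, 21631 protein-coding genes), without exons, and ties counted for each gene. Tests used limma 3.58.1 in R 4.3.3 (two-sided moderated test with an intensity trend) on log2 of the value plus 1, centred per library, and were checked on simulated data. Regions were described in full when they were a member's strongest or changed in a comparison by test or presence, which 21 did, limited to the 12 with most such changes. Other regions are described by choice after their values were seen. Members and lists were chosen with earlier results of these data known. Alternatives were a pseudocount of 5, no centring, quantile normalization, a signal of at least 20, an overlap of at least 100 bp, genes within 10 kb, peak lists of equal length, a fit over all libraries of an experiment, a replicate block and leaving out each library.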

Additional observations from a re-analysis of the deposited data

How the results depend on the processing

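Presence depends on list length and signal on scaling, so counts near 1 are fragile. Without centring, the share of all regions called also moved. It went from 26.0% to 17.4% for 24 h against blood and 5.44% to 2.8% for 48 h against 24 h. Kupffer cells went from 26.4% to 31.6% against 48 h and 51% to 41.3% against blood. TIM4+ knockouts went from 8.78% to 3.64% and TIM4- from 13.7% to 28.8% against controls. Between knockouts it went from 2.11% to 68.0%, for Smad4 3.07% to 1.32% and for DLL4 3.88% to 3.54%. Changed counts are not read as particular to members. Member regions called went from 3 to 1 without centring for 24 h against blood (1 to 4 when a library was left out). For 48 h against 24 h, 1 became 2 without centring and 0 with quantile normalization or all libraries in the fit (0 to 5). For Kupffer cells against 48 h, 1 became 4 without centring and 0 with quantile normalization, with peaks of at least 20 or with all libraries (0 to 1). Against blood, 7 became 4 without centring and with peaks of at least 20 (7 to 9). TIM4+ knockouts went from 2 to 1 with all libraries (0 to 3). TIM4- knockouts against controls went from 1 to 2 without centring (1 higher and 1 lower), with a mean signal of at least 20, with an overlap of 100 bp and with all libraries, and to 3 with quantile normalization and peaks of at least 20 (1 to 2). TIM4- against TIM4+ knockouts went from 1 to 8 without centring, to 0 with quantile normalization, a mean signal of at least 20 and an overlap of 100 bp, to 2 with all libraries and to 3 with the replicate block (0 to 1). Smad4 gave 0 throughout and DLL4 0 to 1 when a library was left out.

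Group-only member regions fell from 1 to 0 at 24 h against blood and from 2 to 0 at 48 h against 24 h, with peaks of at least 20 and with equal lists (1 to 3 and 2 to 4 when a library was left out). Kupffer cells against 48 h went from 1 to 2 with peaks of at least 20 (1 to 5), and against blood leaving out a library gave 5 to 9 in place of 4. TIM4+ knockouts went from 1 to 0 with an overlap of 100 bp (1 to 2). TIM4- knockouts went from 2 to 1 with peaks of at least 20, equal lists or 10 kb (2 to 4), and against TIM4+ from 3 to 1 with peaks of at least 20 (3 to 5). Smad4 went from 3 to 1 with peaks of at least 20 (4 to 7), and DLL4 from 1 to 0 with equal lists (2 to 4).

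Without centring, which moves all regions alike, 12 of 16 regions turned direction between the knockout populations, 8 of 16 in TIM4- and 5 of 16 in TIM4+ knockouts against controls, 6 of 14 for Smad4, 4 of 12 at 24 h against blood, 3 of 16 and 1 of 13 for Kupffer cells against 48 h and blood, and 0 in the other comparisons. Regions called under either setting that turned between the knockout populations included, near Pltp, chr2:164866730-164867147 (0.16) and chr2:164867252-164867573 (0.50), the far Lpl region (0.64), an Apoe region at chr7:19699607-19699954 (0.69) and the Apoc4 region (0.65). Libraries with the same replicate number shared little deviation, with a correlation of deviations of 0.009, -0.004 and 0.061 in the Nr1h3 comparisons and -0.038 in BMDM. Each value rests on a single difference between replicates per group, so it cannot show whether the libraries were paired. The replicate block changed the count of calls only between the knockout populations, where the Apoc1 upstream region (adjusted p 0.037) and an Lpl region at 73595 bp (adjusted p 0.042) then passed. The cause of these changes was not tested. Member values rested on as few as 8 tags.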
